A study of Mus musculus with 99 samples.

Results

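The genes examined here are 77 chromatin modifiers and remodellers, out of 55291 gene symbols in a count table of single hair cells from the mouse cochlea. They were chosen by symbol alone, from 11 families: the histone deacetylases (Hdac), sirtuins (Sirt), lysine acetyltransferases (Kat), the Kmt2 and Kmt5 histone methyltransferases, the Ezh subunits of Polycomb repressive complex 2, the demethylases Kdm1 to Kdm4, the DNA methyltransferases (Dnmt), the TET dioxygenases (Tet), and the Smarc and Chd remodelling proteins. Subunits of katanin, pseudogenes of Dnmt genes and antisense transcripts were left out.

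The first group held 32 outer hair cells (OHCs) at postnatal day 30 from Slc26a5-CreER/+; Ai9/+ mice, labelled wild type. The other 67 cells came, at postnatal day 42, from Slc26a5-CreER/+; Rosa26Tbx2/+ mice, in which OHCs express the transcription factor Tbx2 and are labelled converted inner hair cells (cIHCs). Both groups were C57BL/6 cochlear cells, both carried the Slc26a5-CreER allele, whose driver gene is expressed in OHCs, and both were picked by hand as tdTomato-positive cells for full-length cDNA libraries. The design text also names OHCs of an earlier study, which were not analysed here. Age and genotype differed together, so their parts in any difference cannot be told apart, and no endogenous inner hair cell is named among the samples. Each library is 1 cell, and no label says from which animal it came. Each group therefore counted as 1 sample, and no difference given here has a replicate check or a test.

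Chromatin is the complex of DNA and histones, and the enzymes in these families set how tightly it is packed. Acetyltransferases add acetyl groups to histone tails, which is associated with open, transcribed chromatin, and deacetylases and sirtuins remove them. Methyltransferases and demethylases write and erase methyl marks on histones or DNA, whose effect depends on the position, and remodellers such as the SWI/SNF (BAF) and CHD complexes use ATP to move nucleosomes. Several families hold paralogs that take the same place in a complex, so a cell type is characterised by which paralog it uses as well as by how much.

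Single OHCs had 5656512 to 9287413 counts in all, cIHCs 4677682 to 13792672, and the median number of genes with reads was 6068.5 in OHCs and 8546 in cIHCs. Tbx2 had 3 counts over all OHCs (0.012 CPM) and 730.7 CPM in cIHCs, with reads in each of the 67 cells. The labels were set beside marker lists chosen with earlier results of these data known, so the sums are no independent check of them. A list of 10 OHC genes summed to 26999.7 to 74020 CPM in single OHCs and to 248.4 to 5381 CPM in single cIHCs. A list of 10 inner hair cell genes summed to 1205 to 4732 CPM and to 4325 to 20792 CPM. The defining OHC gene Slc26a5, which encodes the motor protein prestin, had 2080 CPM in OHCs and reads in 7 of 67 cIHCs. Genes of other cell types had low pooled levels: the sum of 10 supporting cell genes was 39.2 CPM in OHCs (0 to 896.7 CPM per cell, with 2 genes at 0) and 22.9 CPM in cIHCs (0 to 873.6, with 2 at 0). The 5 glia genes summed to 30.7 CPM (0 to 283.4) and 13.6 CPM (0 to 273.6), and the 8 blood and macrophage genes to 9.51 CPM (0 to 127.2, with 2 at 0) and 53.8 CPM (0 to 336.9, with 2 at 0). Most of the last sum was C1qb, at 48.2 CPM in cIHCs, with reads in 35 of 67, and 0 counts in OHCs. The rest of this list was found in few cIHCs. C1qa and C1qc had 0 counts there, and Csf1r, Ptprc, Cd68, Hbb-bs and Hba-a1 had reads in 1, 2, 3, 4 and 6 cells. The supporting cell, glia and blood lists together, C1qb included, reached 100 CPM in 9 of 32 OHCs and 20 of 67 cIHCs. A list of 9 genes that respond to tissue dissociation had a sum of 1069 CPM in OHCs against 1895 CPM in cIHCs, and of its 8 genes at 10 CPM Atf3, Egr1, Junb and Fos were at least 2-fold higher in cIHCs (log2 ratios of 13.39, 4.28, 2.59 and 2.26) and Fosb lower (-2.72). The groups also differed in sex-linked reads, with Xist at 10 CPM or more in 4 OHCs and 55 cIHCs and Y-linked reads in 24 and 12 cells. The part of depth, reads of these lists, dissociation genes and sex-linked composition in the differences below was not tested beyond the values given.

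Levels are counts per 1000000 counts (CPM), pooled over the cells of a group, and differences are log2 ratios of the pooled CPM in cIHCs over OHCs, so that 1 stands for 2-fold. Brackets after a ratio hold its exact 95% interval, which covers counting error only, since reads were amplified and carry no molecular identifiers, so that they do not count molecules. The spread between cells is given by the lowest, median and highest CPM per cell and by the share of pairs with a higher cIHC, over all 2144 ways to pair a cIHC with an OHC.

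Of the 77 chromatin genes, 66 reached 10 CPM in 1 or both groups. The 11 others were Hdac11, Sirt6, Kdm2b, Kdm4d, Dnmt3b, Dnmt3c, Dnmt3l, Smarca1, Smarcd3, Chd3 and Chd5. Among the 66, 9 were at least 2-fold higher in cIHCs, 13.6% of them, where 26.3% of all 10041 genes at this level were so. In the other direction 4 were at least 2-fold lower, 6.06%, against 14.3% of all genes, and 53 lay within 2-fold. The share of chromatin genes past 2-fold in pooled level was thus below that of all genes in both directions. By pairs of cells, 5 of the 66 (7.58%) had a higher cIHC in at least 75% of pairs, against 7.63% of all genes, and 1 (1.52%) in at most 25%, against 12.5%. The higher ones were Hdac3, Hdac8, Hdac9, Kat14, Ezh2, Tet2, Smarcal1, Smarcb1 and Smarcd2, and the lower ones Hdac7, Hdac10, Sirt1 and Kmt2b. Leaving out, for each gene, the highest cell of each group gave 17 of 64 higher (26.6%, against 34.96% of all genes) and 1 lower, Hdac7 (1.56%, against 10.9%). With TMM factors, which move every ratio by -0.19 and rescale the CPM that the filter reads, there were 7 higher and 6 lower, beside 21.7% and 17.96% of all genes. Ezh2 then lay within 2-fold and Kdm4b past it, while Hdac8 dropped below 10 CPM and Hdac11 reached it.

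The median log2 ratio of the 66 genes was 0.31, with quartiles of -0.30 and 0.72, beside a median of 0.25 and quartiles of -0.48 and 1.05 over all genes. A ratio above 0 was found for 41 of the 66 and below 0 for 25, and 59% of all genes were above 0. The count of 66 contains 6 genes that reached 10 CPM only in the group where they were higher (Hdac8, Kat14, Ezh2, Smarcal1 and Smarcb1 in cIHCs, and Hdac10 in OHCs), so these had to differ in that direction. Among the 60 that reached it in both groups, 4 were at least 2-fold higher and 3 at least 2-fold lower. The shares of all genes that reached it in both groups were not computed, so these counts have no background beside them. Just inside and outside the 2-fold limit lay Ezh2 at 1.03 and Hdac2 at 0.88 on the higher side, and Kmt2b at -1.07 and Kdm4b at -0.90 on the lower side.

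**Figure D1:**
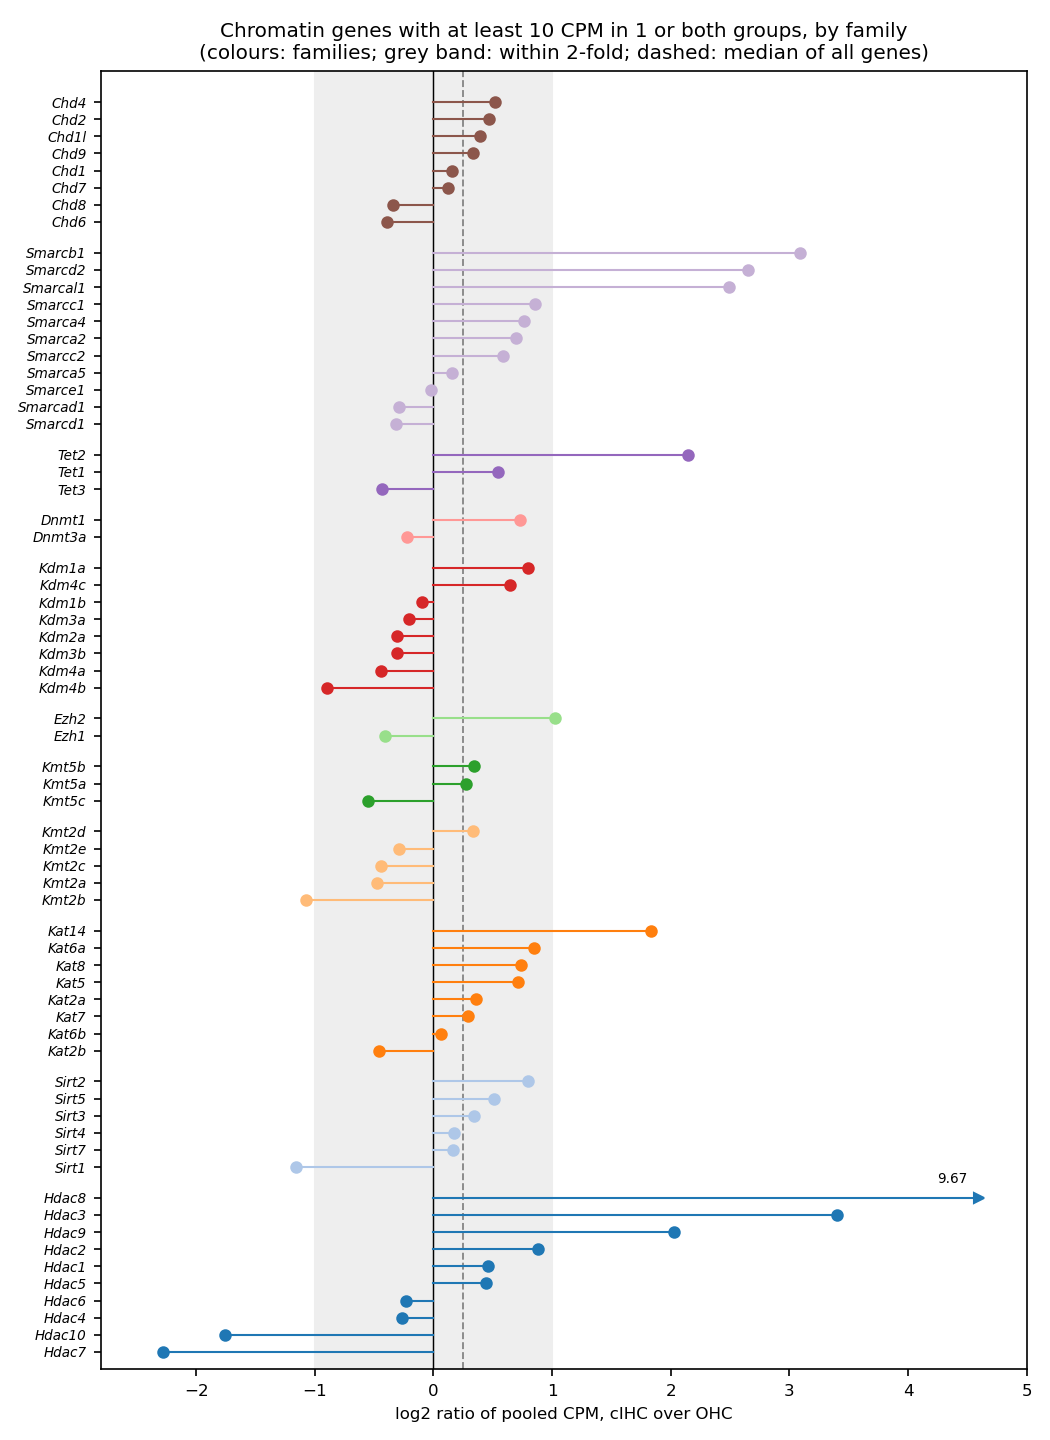
Log2 ratio of pooled CPM, cIHC over OHC, for the 66 chromatin genes that reached 10 CPM in either group, grouped by family. The grey band marks ratios within 2-fold and the dashed line the median of all genes (0.25). The arrow marks Hdac8, whose ratio of 9.67 lies beyond the axis. For that ratio its 2 counts in OHCs were set to the floor of 3. Of the 66 points, 53 lie in the band, 9 above it and 4 below it.

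The deacetylases held both the highest ratio measured on ample counts and the lowest ratio among the 66. Hdac3, the catalytic subunit of the NCoR and SMRT co-repressor complexes, is a gene of chromosome 18 (37935844 to 37955016, minus strand). In single OHCs its level had a lowest value of 0, a median of 0.85 and a highest value of 378.3 CPM. In single cIHCs the corresponding values were 104.9, 577.3 and 1246 CPM. All 67 cIHCs had reads against 18 of 32 OHCs, no OHC reached the cIHC median, and 52 cIHCs lay above the highest OHC. The pooled level was 630.8 CPM (628.7 to 633.0) in cIHCs and 59.6 CPM (58.6 to 60.5) in OHCs, a log2 ratio of 3.41 (3.38 to 3.43) or 10.6-fold. A cIHC was higher in 98.1% of pairs, and the ratio stayed between 3.20 and 3.70 under every alternative except the median of CPM per cell, which gave 9.41. Per kilobase of exon, Hdac3 ranked 7 of the 77 in OHCs, at 14.7 CPM, and 1 in cIHCs, at 156 CPM.

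Hdac1 and Hdac2, the paired deacetylases of the NuRD, Sin3 and CoREST complexes, differed less. Hdac1 ran from 0 to 489 CPM (median 0.15) in OHCs and from 0 to 317.9 CPM (median 105.1) in cIHCs. Hdac2 ran from 0 to 413.5 CPM (median 0.20) in OHCs and from 0 to 614.3 CPM (median 127.3) in cIHCs. The ranges overlapped widely: 11 OHCs lay above the cIHC median of Hdac1 and 10 above that of Hdac2, while many others had few reads or none. Hdac1 had reads in 19 of 32 OHCs and 65 of 67 cIHCs, with a log2 ratio of 0.46 (0.44 to 0.48). Hdac2 had reads in 18 and 63 cells, with a log2 ratio of 0.88 (0.86 to 0.91). Both reached 10 CPM together in 7 of 32 OHCs and 50 of 67 cIHCs.

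Hdac8, the remaining class I enzyme and X-linked (X, 102284639 to 102505359), had 2 counts in 1 of 32 OHCs. In cIHCs it ran from 0 to 65.8 CPM, with a median of 0, and 24 of 67 cells had reads. Most cIHCs thus shared the OHC value of 0, and 21 cIHCs lay above the highest OHC. The pooled cIHC level was 10.1 CPM. With the 2 OHC counts set to the floor of 3, the log2 ratio was 9.67. The interval of 8.40 to 13.30 used the 2 counts themselves. In the cells with Y-linked reads the Hdac8 level was 0.011 CPM in 24 OHCs and 7.18 CPM in 12 cIHCs. Summed over the 4 class I genes, cells ranged from 0 to 961.5 CPM (median 205) in OHCs and from 331.8 to 1749.9 CPM (median 917.9) in cIHCs. The ratio of these sums was 2.00, and 0.73 with Hdac3 left out.

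The class IIa deacetylases, which shuttle between nucleus and cytoplasm and bind MEF2 transcription factors, had similar sums of 211.6 CPM in OHCs and 265.1 CPM in cIHCs but differed in make-up. Hdac7 (chromosome 15, 97792664 to 97844502) had a lowest value of 0, a median of 17.3 and a highest value of 397.2 CPM in OHCs, and 0, 0.39 and 110.5 CPM in cIHCs. Every cIHC was exceeded by 9 OHCs, though both groups held cells at 0, and 20 of 32 OHCs and 39 of 67 cIHCs had reads. Pooled over cells it stood at 66.2 CPM in OHCs against 13.7 CPM in cIHCs, for a log2 ratio of -2.28 (-2.32 to -2.24). Hdac9 (chromosome 12, 34047580 to 34917095) had 0, 9.0 and 207.7 CPM in OHCs and 0.16, 113.1 and 411.7 CPM in cIHCs. All 67 cIHCs had Hdac9 reads against 23 of 32 OHCs, and 10 cIHCs exceeded every OHC. Pooled over cells it stood at 30.1 CPM in OHCs against 122.9 CPM in cIHCs, for a log2 ratio of 2.03 (1.99 to 2.06), and a cIHC was higher in 85.6% of pairs.

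Per kilobase of exon, Hdac7 made up 44.03% of the class IIa counts in OHCs and 8.88% in cIHCs, and Hdac9 9.23% and 36.8%. Hdac5 took 31.6% and 42.0%, and Hdac4 15.2% and 12.4%. The main class IIa genes were therefore Hdac7 and Hdac5 in OHCs, and Hdac5 and Hdac9 in cIHCs. As the mean of the shares in single cells, Hdac7 had 30.0% in OHCs and 8.39% in cIHCs, and Hdac9 13.2% and 39.8%. Hdac4 and Hdac5 themselves lay within 2-fold, at log2 ratios of -0.26 and 0.44.

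The other deacetylases had low levels. Hdac10, a class IIb enzyme that acts on acetylated polyamines, ran from 0 to 344 CPM in OHCs and from 0 to 103.6 CPM in cIHCs, both with a median of 0. Few cells carried it, 6 of 32 OHCs and 9 of 67 cIHCs, and the highest OHC contributed 52.6% of OHC counts. Its log2 ratio of -1.76 (-1.83 to -1.69) turned to 0.75 after thinning each cell to 5880000 reads. That step also dropped the cells with fewer reads, leaving 29 of 32 OHCs, and the part of the dropped cells was not tested. Hdac6, the tubulin deacetylase, had a ratio of -0.23. Hdac11, the class IV enzyme, did not reach 10 CPM, with 9.79 CPM in OHCs and 1.96 CPM in cIHCs.

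Among the sirtuins, which need NAD for their reaction, Sirt1 alone lay past 2-fold. Sirt1, the nuclear deacetylase, had a lowest value of 0, a median of 0 and a highest value of 660.7 CPM in OHCs, and 0, 6.44 and 91.6 CPM in cIHCs. A few OHCs were very high and most had none: 14 of 32 OHCs had reads against 50 of 67 cIHCs, and the highest OHC contributed 42.7% of OHC counts. The pooled log2 ratio was -1.16 (-1.20 to -1.12), and -0.46 once the highest OHC and cIHC were left out. A cIHC was the higher in 51.3% of pairs and an OHC in 34.4%, so the pooled ratio and the count of cells pointed in different directions. Leaving out the tenth of cells with the fewest genes gave a ratio of -0.03.

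Sirt2, a mostly cytoplasmic enzyme that deacetylates tubulin, had the highest sirtuin level per kilobase in both groups. It ran from 0 to 534 CPM (median 1.41) in OHCs and from 0 to 475.5 CPM (median 189.7) in cIHCs. Reads were present in 19 of 32 OHCs and 66 of 67 cIHCs, and the OHC range covered that of the cIHCs. The log2 ratio was 0.80 (0.78 to 0.82). The mitochondrial Sirt3, Sirt4 and Sirt5 had ratios of 0.34, 0.17 and 0.51, and the nucleolar Sirt7 0.16. The highest OHC contributed 67.3% of OHC counts of Sirt4.

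Of the 8 acetyltransferase genes, Kat14 alone lay past 2-fold. Kat14 encodes a subunit of the ATAC complex. In OHCs it ran from 0 to 77.8 CPM and in cIHCs from 0 to 184.2 CPM, with a median of 0 in both. It had reads in 4 of 32 OHCs and 22 of 67 cIHCs, so that most cells of both groups were at 0. The log2 ratio was 1.84 (1.75 to 1.93) but -0.38 among cells with Y-linked reads, and 693 exon bases of Kat14 are shared with Pet117, which has no count in either group. Kat6a, Kat8 and Kat5 had ratios of 0.85, 0.74 and 0.71, and Kat2a, Kat7 and Kat6b ratios of 0.36, 0.29 and 0.07. Kat5, the catalytic subunit of the TIP60 complex, ran from 0 to 131 CPM (median 0) in OHCs and from 0 to 100.2 CPM (median 15.4) in cIHCs. Kat2b, one of the paralogous pair of SAGA-type enzymes, was lower at -0.46, and its share of the pair per kilobase was 59.4% in OHCs and 45.3% in cIHCs.

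The Kmt2 family, grouped here by symbol alone, includes enzymes that methylate lysine 4 of histone H3 at promoters and enhancers, though not every member need do so. The Kmt2 genes had the lowest median ratio of the families, -0.44 over 5 genes, and 4 of the 5 were below 0. Kmt2b was the one past 2-fold. It ran from 0 to 261.8 CPM (median 0) in OHCs and from 0 to 200.9 CPM (median 0.11) in cIHCs. Both groups held many cells without reads, since only 15 of 32 OHCs and 35 of 67 cIHCs had any. The log2 ratio was -1.07 (-1.11 to -1.04), or -0.93 once the highest OHC and cIHC were left out and -0.11 in the cells with Y-linked reads. Of the pairs, 36.7% had the cIHC higher and 37.9% the OHC.

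Kmt2e had the highest level of this family per kilobase, at 24.4 CPM in OHCs and 19.9 CPM in cIHCs, and was the only chromatin gene with reads in all 99 cells. Its level ran from 0.31 to 936.9 CPM (median 197.3) in OHCs and from 6.17 to 657.1 CPM (median 195.4) in cIHCs. The medians nearly coincided and the ranges overlapped throughout, with a log2 ratio of -0.29 (-0.31 to -0.28). Kmt2a, the MLL1 enzyme, ran from 0 to 741.1 CPM (median 85.9) in OHCs and from 0.10 to 358.9 CPM (median 87.2) in cIHCs, and had a ratio of -0.47. Kmt2d, an enzyme of enhancers, ran from 0 to 254.1 CPM (median 100.5) in OHCs and from 9.38 to 363.6 CPM (median 112.6) in cIHCs. Its ratio was 0.34 and that of its paralog Kmt2c -0.44, so that Kmt2d made up 36.2% of the pair per kilobase in OHCs and 49.3% in cIHCs.

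The Kmt5 genes, which methylate lysine 20 of histone H4, lay within 2-fold. Kmt5a, which adds the first methyl group, ran from 0 to 539.1 CPM (median 46.5) in OHCs and from 0 to 305.7 CPM (median 94.0) in cIHCs. Its log2 ratio was 0.27 (0.25 to 0.30). Kmt5b and Kmt5c, which add further methyl groups, had ratios of 0.34 and -0.55.

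Reads of Ezh1 or Ezh2, the alternative catalytic subunits of Polycomb repressive complex 2, were found in 12 of 32 OHCs and 40 of 67 cIHCs. Ezh1 ran from 0 to 280.2 CPM in 32 OHCs and from 0 to 150.7 CPM in 67 cIHCs, with a median of 0 in both. Ezh2 (chromosome 6, 47530139 to 47595341) ran from 0 to 144.9 CPM in OHCs and from 0 to 141 CPM in cIHCs, again with medians of 0. Most cells lacked both genes at 10 CPM, as 23 of 32 OHCs and 37 of 67 cIHCs did, and no OHC had both. Ezh1 had a log2 ratio of -0.41 and Ezh2 one of 1.03 (0.95 to 1.10), and Ezh1 made up 81.0% of the pair per kilobase in OHCs and 61.2% in cIHCs when pooled. As the mean over the 12 OHCs and 40 cIHCs with either gene, its share was 74.96% and 65.4%. The Ezh2 ratio was below 1 under TMM (0.83), median-of-ratios scaling (0.82), the mean of CPM per cell (0.73), thinning (0.63), other totals (0.98 and 0.95) and among cells with Y-linked reads (0.63). The highest OHC contributed 56.8% of OHC counts of Ezh2, and the ratio without the highest cells was 1.97.

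All 8 demethylase genes at this level lay within 2-fold, with 2 above 0 and 6 below 0 and a median of -0.26. Kdm1a (LSD1), which removes methyl groups from lysine 4 of histone H3 within the CoREST complex, had the highest ratio of them. It ran from 0 to 227.2 CPM (median 0.69) in OHCs and from 0 to 352.7 CPM (median 57.7) in cIHCs. It had reads in 20 of 32 OHCs and 62 of 67 cIHCs, and 4 cIHCs exceeded every OHC. Its log2 ratio was 0.79 (0.76 to 0.82). The lysine 9 and 36 demethylases Kdm4a, Kdm4b and Kdm4c had ratios of -0.45, -0.90 and 0.64, while the highest OHC contributed 41.2% of OHC counts of Kdm4b. Kdm1b, Kdm2a, Kdm3a and Kdm3b had ratios of -0.09, -0.30, -0.21 and -0.30.

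For DNA methylation, the maintenance enzyme Dnmt1 ran from 0 to 214.2 CPM (median 0) in OHCs and from 0 to 166.1 CPM (median 15.3) in cIHCs. The enzyme of new methylation, Dnmt3a, ran from 0 to 327.8 CPM (median 9.18) in OHCs and from 0 to 337 CPM (median 48.3) in cIHCs. The ranges of both genes overlapped throughout, with log2 ratios of 0.73 (0.68 to 0.77) and -0.22 (-0.25 to -0.20). Dnmt3b had no read in OHCs, which by counting of these cells alone allows up to 9.38% with reads, and reads in 2 of 67 cIHCs. The germ line genes Dnmt3c and Dnmt3l had no read in either group, which allows up to 9.38% of OHCs and 4.48% of cIHCs.

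Tet2, one of the dioxygenases that oxidise methylcytosine as a step of demethylation, stood apart from its paralogs. Tet2 (chromosome 3, 133463679 to 133545139) had a lowest value of 0, a median of 0 and a highest value of 119.5 CPM in OHCs, and 0, 30.7 and 169.5 CPM in cIHCs. Reads were present in 14 of 32 OHCs and 62 of 67 cIHCs, and 3 cIHCs exceeded every OHC. Pooled over cells it stood at 10.1 CPM in OHCs against 44.7 CPM in cIHCs, for a log2 ratio of 2.15 (2.09 to 2.21), and a cIHC was higher in 80.1% of pairs. Over the alternatives that gave a value, the ratio ran from 1.73 to 2.61.

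Tet1 ran from 0 to 214.7 CPM in OHCs and from 0 to 193.5 CPM in cIHCs, with medians of 0 and a log2 ratio of 0.55. Tet3 ran from 0 to 434.5 CPM (median 41.1) in OHCs and from 0 to 305.4 CPM (median 46.8) in cIHCs, with a log2 ratio of -0.43. Tet3 was thus the paralog that most OHCs had, and Tet2 joined it in cIHCs. Per kilobase, Tet3 made up 75.2% of the TET counts in OHCs and 46.4% in cIHCs, and Tet2 9.47% and 34.9%. As the mean of the shares in single cells Tet3 had 70.1% and 45.6%, and Tet2 21.7% and 39.7%. Tet2 and Tet3 reached 10 CPM together in 3 of 32 OHCs and 35 of 67 cIHCs.

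**Figure D2:**
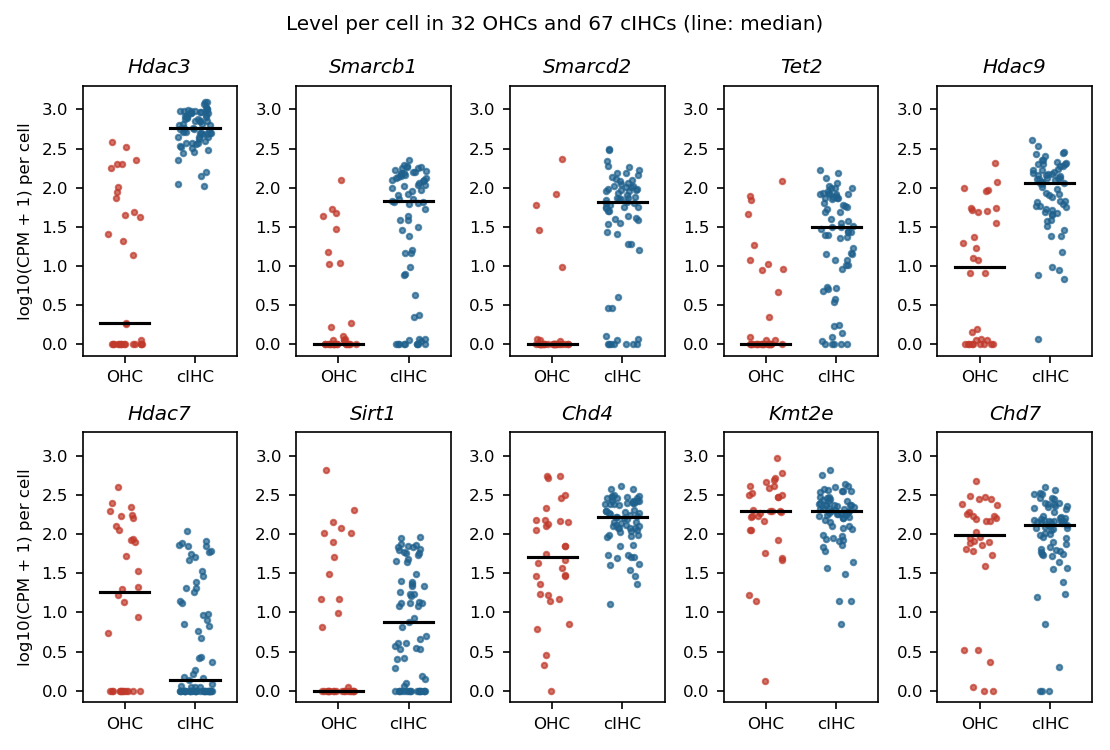
Level of 10 chromatin genes in each cell, as log10(CPM + 1), with 1 point per cell for 32 OHCs (red) and 67 cIHCs (blue) and a line at the median; points are spread sideways at random. All cIHCs have Hdac3 levels above the OHC median of 0.85 CPM, whereas the Kmt2e medians (197.3 and 195.4 CPM) nearly coincide.

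The Smarc family had the highest median ratio, 0.69 over 11 genes, and 3 of the 11 (27.3%, beside 26.3% of all genes) were at least 2-fold higher in cIHCs and 0 lower. Smarcb1 and Smarcd2 are subunits of the BAF remodelling complexes, and Smarcal1 is a related helicase that works at stalled replication forks. The sequences before the start sites of these genes and of Tet2 are shown because these genes are among those higher in the cells that express Tbx2, a factor of the T-box family, whose known site has the core AGGTGT. They were chosen after the levels were seen. They come from RefSeq promoters of GRCm38.p6, each running from 250 bases before to 50 bases after a start, cut here to the part that holds no annotated exon. They are written 5′ to 3′ on the strand of the gene, and capitals mark matches on either strand to the T-box core AGGTGT (or ACACCT) and to the GC box GGGCGG (or CCGCCC). The stretches are those of Smarcal1 (chr1:72583001-72583250, plus strand), Smarcb1 (chr10:75921618-75921864, minus strand) and Tet2 (chr3:133544391-133544640, minus strand).
Smarcal1: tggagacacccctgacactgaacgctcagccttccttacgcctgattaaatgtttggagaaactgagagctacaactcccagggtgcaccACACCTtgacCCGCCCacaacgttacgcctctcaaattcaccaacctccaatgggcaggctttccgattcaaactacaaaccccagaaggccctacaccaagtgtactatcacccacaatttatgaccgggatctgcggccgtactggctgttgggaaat
Smarcb1: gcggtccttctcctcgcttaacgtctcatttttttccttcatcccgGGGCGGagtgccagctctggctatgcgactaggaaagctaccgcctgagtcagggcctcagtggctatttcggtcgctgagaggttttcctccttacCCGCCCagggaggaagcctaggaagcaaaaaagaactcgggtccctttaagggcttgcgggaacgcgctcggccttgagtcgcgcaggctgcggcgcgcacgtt
Tet2: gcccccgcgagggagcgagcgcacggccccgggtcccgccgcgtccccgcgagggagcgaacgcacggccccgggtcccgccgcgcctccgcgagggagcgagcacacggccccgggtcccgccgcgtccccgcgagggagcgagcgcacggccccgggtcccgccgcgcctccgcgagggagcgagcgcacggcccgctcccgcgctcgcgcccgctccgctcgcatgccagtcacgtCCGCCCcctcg

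Smarcd2 has a start site within the gene whose promoter holds the T-box core at 2 places, 171 and 39 bases before the start. The windows of 30 bases around them (chr11:106267786-106267815 and chr11:106267654-106267683, minus strand) have the core in capitals.
Smarcd2, far match: ctggagctggaaAGGTGTtgattagtacta
Smarcd2, near match: caggggcggggcAGGTGTagtttacacgct

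Of the 77 chromatin genes, 62 had 1 or more promoters in the RefSeq table, 91 promoters in all out of 32851. Hdac3, Hdac10 and Kmt2b were among those without one. The T-box core was found on either strand in 6.59% of the 91 promoters and in 13.7% of all promoters, and the longer site AGGTGTGA in 0% and 1.28%. Among the 8 genes at least 2-fold higher with a promoter, 2 held the core, Smarcal1 and Smarcd2. The GC box was found in 68.1% of the chromatin promoters and in 35.7% of all and CCAAT in 37.4% of both. Their median GC content was 62% against 52.7%, and the median ratio of observed to expected CpG was 0.82 against 0.38. A match is a description of the letters and not a measured site, and the stretches of Smarcb1 and Tet2 shown hold no T-box core. The stretches differ in GC content: that of Tet2 has 83.6% GC, that of Smarcb1 59.5% and that of Smarcal1 52%.

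Smarcb1 (chromosome 10, 75896769 to 75921617) encodes a core subunit of most forms of the BAF complex. In OHCs it had a lowest value of 0, a median of 0 and a highest value of 125.3 CPM. In cIHCs the values were 0, 66.7 and 222.9 CPM. It had reads in 15 of 32 OHCs, of which 7 reached 10 CPM, and in 58 of 67 cIHCs, and 19 cIHCs exceeded every OHC. Pooled over cells it stood at 9.29 CPM in OHCs against 79.1 CPM in cIHCs, for a log2 ratio of 3.09 (3.03 to 3.15) or 8.51-fold, and a cIHC was higher in 79.1% of pairs. The ratio was 1.57 among cells with Xist reads, where there are 4 OHCs, and 3.19 among cells with Y-linked reads.

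Smarcd2, an accessory subunit that takes 1 place with its paralogs Smarcd1 and Smarcd3 (chromosome 11, 106263179 to 106272972), had 0, 0 and 228.5 CPM in OHCs and 0, 64.96 and 314.5 CPM in cIHCs. Reads were present in 8 of 32 OHCs and 60 of 67 cIHCs, so that most OHCs had none and most cIHCs some. The highest OHC contributed 54.8% of OHC counts. Pooled over cells it stood at 12.3 CPM in OHCs against 76.8 CPM in cIHCs, for a log2 ratio of 2.65 (2.59 to 2.70), or 3.68 without the highest cell of each group. Smarcd1, by contrast, had a ratio of -0.31, with 20.4 CPM in OHCs and 16.4 CPM in cIHCs. Smarcd3, the paralog of heart and skeletal muscle and of neurons, had 0.012 and 0.23 CPM.

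The leading Smarcd paralog therefore differed between the groups. Per kilobase, Smarcd1 made up 59.7% of the set in OHCs and 15.997% in cIHCs, and Smarcd2 40.3% and 83.8%. As the mean of the shares in single cells, over the 20 OHCs and 64 cIHCs with any of the set, Smarcd2 had 24.8% and 74.6%. At 10 CPM, 9 OHCs had Smarcd1 alone, 2 had Smarcd2 alone, 2 had both and 19 had neither. Of the cIHCs, 5 had Smarcd1 alone, 30 had Smarcd2 alone, 24 had both and 8 had neither.

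Smarcal1 (chromosome 1, 72583251 to 72633134) ran from 0 to 91.4 CPM (median 0) in OHCs and from 0 to 166.3 CPM (median 10.4) in cIHCs. It had reads in 3 of 32 OHCs and 44 of 67 cIHCs, and 12 cIHCs exceeded every OHC. The log2 ratio was 2.49 (2.41 to 2.56), but 0.59 among cells with Xist reads and 3.31 once the highest cells were left out.

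The ATPases of the BAF complexes differed less. Smarca4 (BRG1) ran from 0 to 264.9 CPM (median 44.4) in OHCs and from 0 to 393.5 CPM (median 102.3) in cIHCs. Smarca2 (BRM) ran from 0 to 199.3 CPM (median 0) in OHCs and from 0 to 237 CPM (median 2.82) in cIHCs. Smarca4 was found in most cells of both groups and Smarca2 in fewer, and their log2 ratios were 0.76 (0.74 to 0.79) and 0.69 (0.65 to 0.73). Smarca4 made up 84.97% of the pooled counts of the pair per kilobase in OHCs and 85.6% in cIHCs, but 71.0% and 84.7% as the mean of the shares in single cells. The core subunits Smarcc1 and Smarcc2 had ratios of 0.86 and 0.59, and Smarcc2 made up 72.3% and 68.3% of that pair when pooled and 62.5% and 66.9% as the mean over cells. Smarce1 had a ratio of -0.02 with 1 OHC at 38.5% of the OHC counts, and the ISWI ATPase Smarca5 a ratio of 0.16. Smarcad1, another ATPase, had a ratio of -0.29. A copy listed as Smarca5-ps had 27.7 CPM in OHCs against 7.18 CPM in cIHCs, so counts of Smarca5 could be split with it.

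**Figure D3:**
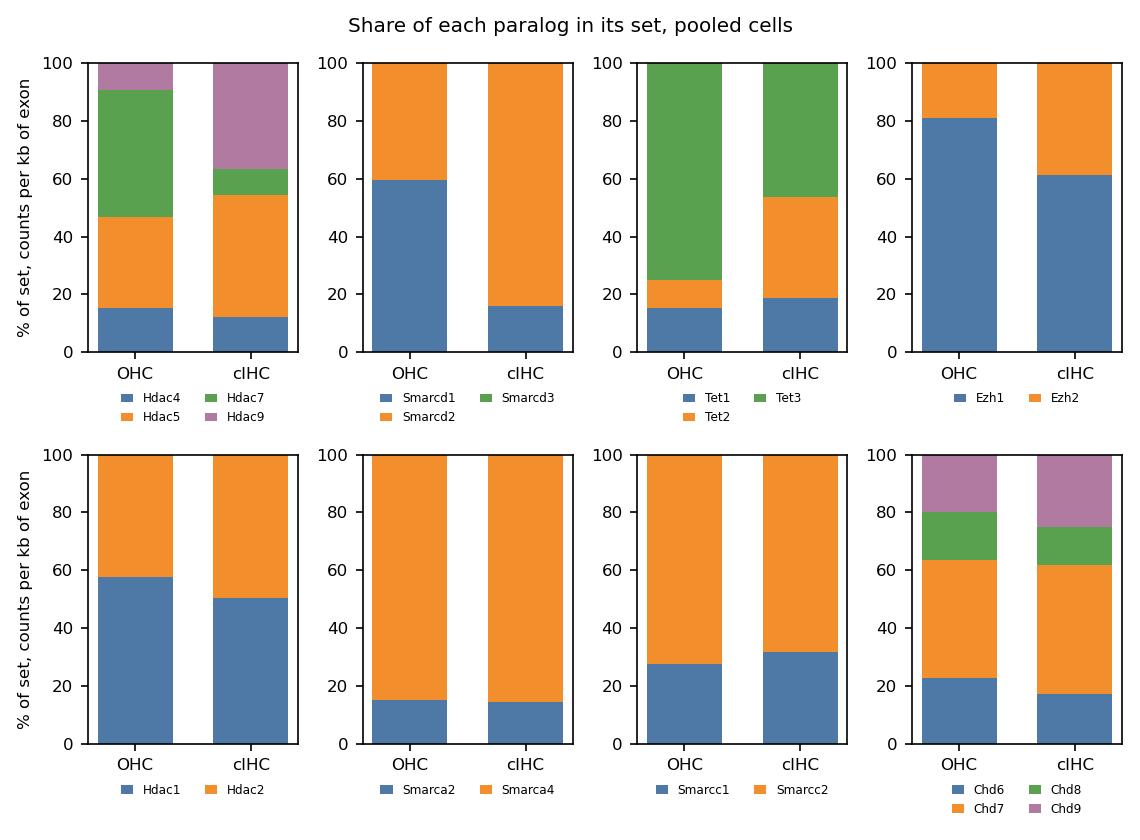
Share of each paralog in its set (% of the set's counts per kilobase of exon, pooled over the cells of a group) for 8 sets in OHCs and cIHCs. In these pooled shares Smarcd2 stands at 40.3% and 83.8%, Hdac9 at 9.23% and 36.8%, and Smarca4 at 84.97% and 85.6%.

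The Chd remodellers lay within 2-fold without exception among the 8 genes at this level, from -0.39 for Chd6 to 0.52 for Chd4, with a median of 0.25. Chd4, the ATPase of the NuRD complex, ran from 0 to 551.9 CPM (median 50.9) in OHCs and from 12.0 to 417.6 CPM (median 162.6) in cIHCs. Reads were present in 31 of 32 OHCs and in all 67 cIHCs, and the OHC range was the wider. The log2 ratio was 0.52 (0.50 to 0.54), with a cIHC higher in 70.8% of pairs. Chd4 made up 98.8% of the NuRD ATPase set of Chd3, Chd4 and Chd5 per kilobase in OHCs and 97.1% in cIHCs.

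Chd7, a remodeller needed for development of the inner ear, was found in 30 of 32 OHCs and 64 of 67 cIHCs. It ran from 0 to 474.8 CPM (median 97.7) in OHCs and from 0 to 404.5 CPM (median 131.7) in cIHCs. The values overlapped throughout, and a cIHC was higher in 52.2% of pairs. The log2 ratio of 0.12 (0.10 to 0.14) was below 0 with TMM or median-of-ratios factors and in cells with Xist or Y-linked reads. Its relatives Chd6, Chd8 and Chd9 had ratios of -0.39, -0.34 and 0.34, and Chd1, Chd1l and Chd2 ratios of 0.16, 0.39 and 0.47.

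Per kilobase of exon, which allows levels of different genes to be compared, the 10 highest chromatin genes over both groups were Hdac3, Hdac1, Sirt2, Hdac2, Kmt2e, Chd4, Kmt5a, Smarca4, Smarcd2 and Kdm1a. In OHCs the order began with Hdac1 at 24.8 CPM, Kmt2e at 24.4 CPM, Sirt2 at 20.9 CPM and Hdac2 at 18.2 CPM. In cIHCs Hdac3 at 155.6 CPM led, followed by Sirt2 at 36.4 CPM, Hdac1 at 34.1 CPM and Hdac2 at 33.5 CPM. Hdac3 thus stood below Hdac1 and Hdac2 in OHCs and above both in cIHCs, and Smarcd2 stood at place 49 in OHCs, with 3.42 CPM, and at place 6 in cIHCs, with 21.4 CPM.

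The summed level of the 77 genes was 3489 CPM in the OHCs against 4615 CPM in the cIHCs. In single cells the sum ran from 1786 to 5057 CPM (median 3579) in OHCs and from 3267 to 6419 CPM (median 4539) in cIHCs. The groups overlapped, with 20 cIHCs above every OHC. Hdac3 made up 50.7% of the difference between the sums, and without it the log2 ratio of the sums was 0.22. The number of chromatin genes with reads per cell ran from 25 to 49 (median 37) in OHCs and from 42 to 67 (median 52) in cIHCs. After thinning each cell to 5880000 reads, which left 29 OHCs and 65 cIHCs, the medians were 34 and 51. The cIHCs also had more genes of all kinds, and chromatin genes were a median of 0.599% of the genes detected in an OHC and 0.612% in a cIHC.

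**Figure D4:**
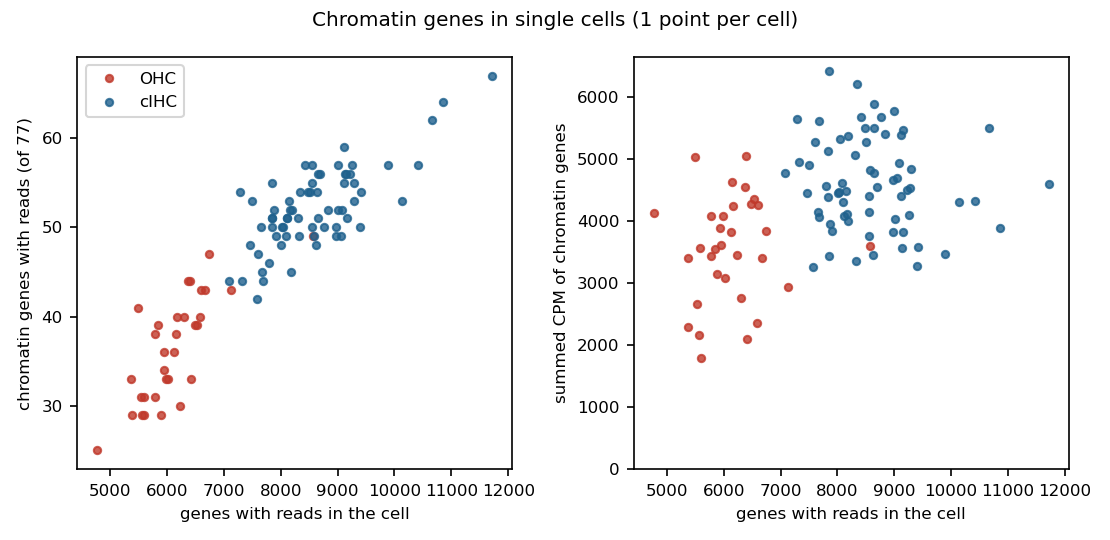
Number of the 77 chromatin genes with reads (left) and their summed CPM (right) in each cell, against the number of all genes with reads in that cell. Cells with more genes also have more chromatin genes, with medians of 37 in OHCs and 52 in cIHCs, while the Spearman correlation of the summed level with the number of genes is 0.16 in OHCs and -0.11 in cIHCs.

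Across the cells of a group, the number of chromatin genes with reads had a Spearman correlation of 0.74 with the number of genes with reads in 32 OHCs and 0.63 in 67 cIHCs. Both numbers come from the same libraries and share their depth. The summed level had a correlation of 0.16 with the number of genes in OHCs and -0.11 in cIHCs. Against the Tbx2 level in the 67 cIHCs, the summed level had a correlation of 0.02 and Hdac3 one of -0.19. Single chromatin genes ran from -0.33 for Tet3 to 0.42 for Hdac9. These cells share their depth and library preparation, and the coefficients are descriptions.

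Reads of a chromatin gene were found in a larger share of cIHCs than of OHCs for 62 of the 66 genes, and 81.3% of all genes showed the same. The median share was 56.3% of OHCs and 85.8% of cIHCs, beside 46.9% and 74.6% for all genes. The exceptions were Hdac7, Hdac10, Smarca5 and Kmt2e, the last with reads in every cell. By the median level per cell, 51 of the 66 were higher in cIHCs, 6 lower and 9 at 0 in both. A set of 16 genes with a pooled ratio below 0 had the higher median in cIHCs. These counts by median were not computed for all genes, so they have no background beside them. In OHCs the median cell was at 0 for 42.4% of the 66 genes and 52.98% of all genes. In cIHCs it was at 0 for 13.6% and 26.8%. The highest OHC held a median of 20.8% of a chromatin gene's OHC counts, against 22.3% for all genes, and the highest cIHC 6.97% against 7.70%. A cIHC was higher in a median of 52.4% of pairs for the 66 genes and 50.2% for all genes.

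**Figure D5:**
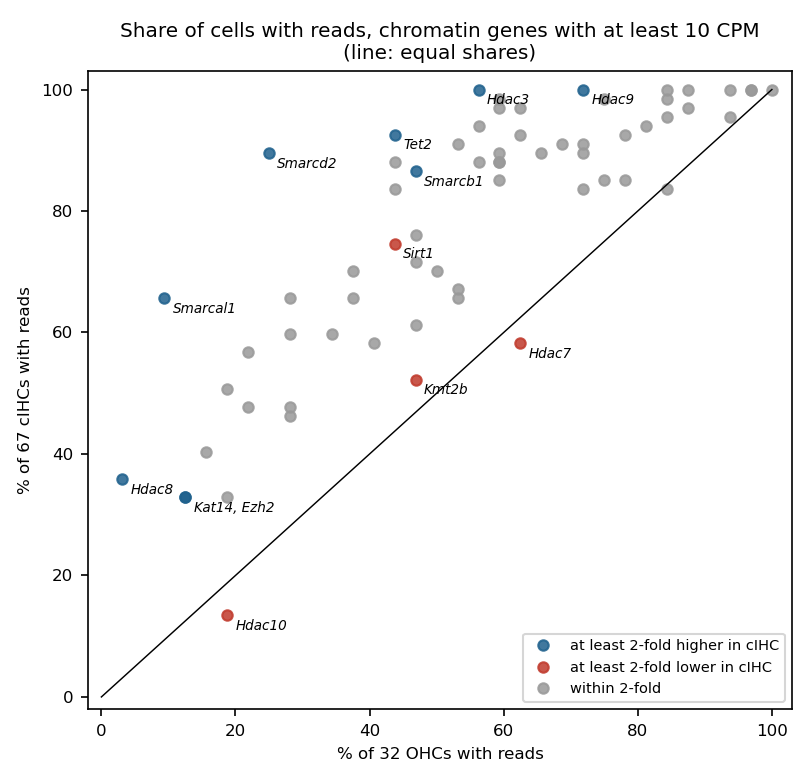
Share of the 32 OHCs (horizontal) and of the 67 cIHCs (vertical) with reads of each of the 66 chromatin genes, in percent, with the line of equal shares; blue marks genes at least 2-fold higher in cIHCs, red those at least 2-fold lower and grey the rest. Nearly all points lie above the line, including the lower gene Sirt1, with reads in 14 of 32 OHCs and 50 of 67 cIHCs.

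The partner genes of these complexes were taken from 12 lists that hold none of the 77 genes, 149 genes chosen with earlier results of these data known, of which 138 reached 10 CPM. At least 2-fold higher in cIHCs were 23 of them, 16.7%, and at least 2-fold lower 11, 7.97%, with a median ratio of 0.06, beside 26.3% and 14.3% and 0.25 for all genes. The BAF partners had 3 of 17 higher (Arid2 at 1.42, Actl6a at 1.16 and Brd9 at 1.04), 2 lower (Bcl7a at -1.26 and Bicral at -1.16) and a median of -0.15. The NuRD partners had 0 of 8 higher and 1 lower, Mta1 at -1.19, and none of the 7 CoREST partners was past 2-fold. The 11 SIN3 and NCoR partners had a median of 0.11, and their sum was 975.1 CPM in OHCs and 843.8 CPM in cIHCs. Of them, Sin3a at 1.30 and Gps2, a subunit of the NCoR complex that holds Hdac3, at 1.22 were higher. Sap30, a subunit of the SIN3 complex, was lower at -2.64, with 78.3 CPM in OHCs and 12.6 CPM in cIHCs.

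Polycomb partners had genes in both directions. Of 14 PRC1 genes 3 were higher (Pcgf5, Phc2 and Phc1) and 3 lower (Pcgf6, Cbx7 and Rybp), with a median of 0.15. The alternative Pcgf subunits went opposite ways: Pcgf5 had 1.57 CPM in OHCs against 72.4 CPM in cIHCs, with reads in 4 of 32 and 59 of 67 cells, and Pcgf6 had 121.3 CPM and 30.6 CPM. The log2 ratios were 5.53 and -1.99. The highest OHC contributed 98.9% of OHC counts of Pcgf5, whose ratio was 12.01 without the highest cell of each group. Of 9 PRC2 partners, Phf19 alone was past 2-fold, at 6.77, with 50 counts in 1 OHC and 22.6 CPM in cIHCs.

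The list named for the COMPASS complexes had a median of 0.61 over 12 genes, where the Kmt2 genes had -0.44. It also holds the methyltransferases Setd1a and Setd1b, so it is not a list of Kmt2 partners alone. Of the 12 listed genes 7 lay above 0 and 5 below 0. Their summed level did not rise with the median, at 736.8 CPM for OHCs against 689.2 CPM for cIHCs. The cIHC had the higher sum in 48.2% of pairs. Men1 (menin) at 1.59, Ash2l at 1.38 and Cxxc1 at 1.02 were higher and Wdr5 at -1.44 lower. Among 10 DNA methylation readers and repair genes, Tdg, the glycosylase that removes the products of TET enzymes, had 11.5 CPM in OHCs against 49.6 CPM in cIHCs, a ratio of 2.11, and Gadd45a a ratio of 1.74. The readers Zbtb33 and Zbtb38 were lower, at -1.54 and -1.13. The other lists held Tada3 at 1.28 among acetyltransferase partners, Setdb2 at 2.12 and Suv39h1 at 1.40 among 12 other methyltransferases, and Phf2 at 1.56 and Kdm6b at 1.38 among 10 other demethylases. Of 16 genes in the list named for ISWI, INO80 and SWR1, 4 were higher and Srcap was lower at -1.22. The higher ones were Baz1a at 1.97, Ruvbl1 at 1.11, Pole3 at 1.06 and, at 2.15, Daxx, a histone chaperone that works with Atrx and is a subunit of none of these complexes. Without the highest cell of each group for the gene, Rybp (-0.99), Mta1 (-0.91), Bicral (-0.72), Wdr5 (-0.72) and Srcap (-0.98) lay within 2-fold. With TMM factors Brd9 (0.84), Actl6a (0.96), Cxxc1 (0.83), Pole3 (0.86) and Ruvbl1 (0.92) lay within 2-fold and Phf2 below 10 CPM, and the partner counts were 17 higher and 17 lower in place of 23 and 11.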

How the data were processed

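Single-cell RNA-seq libraries of 32 OHCs and 67 cIHCs were measured. The deposited table holds raw read counts per gene symbol and cell, made by the authors. Per the submitters' processing notes, HISAT2 2.2.1, StringTie 2.2.1, featureCounts 2.0.1 and mm10 were used. The annotation, strand setting and filters are not given in the sources used here, so reads of overlapping genes cannot be told apart. Exon bases are shared with another gene by 34 of the 77 genes, 7 of them over more than 10% of their exons, and 5 of the 13 past 2-fold share some (Hdac7, Sirt1, Kat14, Ezh2 and Tet2).

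Counts were summed over the cells of a group and divided by the summed totals (242054710 in OHCs, 544012348 in cIHCs) to give CPM. Intervals are exact at 95%: Poisson for levels and conditional binomial for ratios. A share of cells at 0 was bounded by 3 cells of the total. A gene counted as past 2-fold at a ratio of 2 or more with a level of 10 CPM reached in either group. For ratios, a group sum under 3 counts was set to a floor of 3, while intervals used the counts themselves. Positions and exon lengths came from GENCODE M21 on mm10, which matched 96.2% of symbols and all 77 genes. No columns were identical, and every column belonged to a sample.

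Values per cell are given for the 13 genes past 2-fold, the 10 highest per kilobase and a set list of well-known enzymes of each family, ratios for the other genes at 10 CPM, and partner genes where past 2-fold. The genes, lists and rules were chosen with earlier results of these data known, and deacetylase class sums, printed sequences and the set in the plot of levels per cell were chosen after their values were seen. The ratio step was run on simulated counts with known folds, which checks the calculation and not the spread between real cells or animals.

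Alternatives changed 1 choice at a time, with the 10 CPM filter applied to the levels each gives: per-cell CPM averaged or as a median, leaving out, for each gene, the highest cell of each group, TMM factors (edgeR 4.0.16 in R 4.3.3), median-of-ratios factors, other totals, other filters and folds, cells with Xist or Y-linked reads alone, leaving out the tenth of cells with the fewest genes, and thinning to 5880000 reads (29 OHCs and 65 cIHCs). Leaving out cells with 100 CPM or more of other cell types' genes was chosen after seeing the data. The work used Python 3.11.15 with scipy 1.17.1, pandas 2.3.3, numpy 2.4.6 and, for plots, matplotlib 3.10.9. No count model or p-value was used, because each group counted as 1 sample.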

Additional observations from a re-analysis of the deposited data

How the results depend on the processing

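The median log2 ratio of the members of these families, 0.31, was 0.27 from per-cell CPM averaged, 1.67 from their median (36 genes with a value), 0.51 without the highest cell of each group, 0.0882 with TMM and 0.0785 with median-of-ratios factors, where the 10 CPM filter read the rescaled levels and so held Hdac11 in place of Hdac8. It was 0.24 with totals without mitochondrial genes, 0.21 without the most abundant genes, 0.48 among cells with Xist reads, -0.011 among cells with Y-linked reads, 0.27 without the cells with the fewest genes and 0.27 without cells with other cell types' reads. The 9 higher genes (13.6%, beside 26.3% of all genes) became 22 with the median of CPM (61.1%, beside 44.6%), 17 without the highest cells (26.6%, beside 34.96%) and 27 among cells with Xist reads (39.7%, beside 40.7%). They became 4 at 50 CPM (11.8%, beside 20.5%), 14 with no filter (18.7%, beside 42.0%) and 21 at 1.5-fold (31.8%, beside 37.7%). The 4 lower genes (6.06%, beside 14.3%) became 1 with the median of CPM (2.78%, beside 9.57%), 1 without the highest cells (1.56%, beside 10.9%), 8 among cells with Xist reads (11.8%, beside 21.4%), 1 at 50 CPM (2.94%, beside 12.2%) and 1 at 4-fold (1.52%, beside 6.31%). Among the 13 genes past 2-fold, those that changed sign were Sirt1, Kat14 and Hdac10. Sirt1 had 7.57 among cells with Xist reads, with 4 OHCs, and Kat14 -0.38 among cells with Y-linked reads. Hdac10 had 0.75 after thinning, which dropped cells with fewer reads and left 29 OHCs. The causes were not tested.

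Of the 13 genes past 2-fold, 7 kept a ratio past 2-fold in the same direction under all alternatives that gave a value. These were Hdac3, Hdac8, Hdac9, Tet2, Smarcb1, Smarcd2 and Hdac7. For these single genes the 10 CPM filter was not applied again. Hdac8 fell below 10 CPM with TMM and median-of-ratios factors, and had 7.18 CPM in cIHCs with Y-linked reads. Of the 53 within 2-fold, 34 changed sign under 1 or more. No paired analysis was possible because sample names merely number the cells within each group and nothing was tested. With 1 sample per group, differences between animals could not be measured.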
